A study of Mus musculus with 8 samples.

Results

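The genes described are the mouse Serpina3 protease inhibitor cluster on chromosome 12, taken as the 8 genes Serpina3c, Serpina3f, Serpina3g, Serpina3h, Serpina3i, Serpina3k, Serpina3m and Serpina3n. A probe was counted as a member when its accession on the array belonged to one of these genes in the RefSeq gene table. By that rule 7 of the 8 genes had a probe, with 9 probes among the 39429 probes and 20886 named genes of the array, and no probe matched Serpina3g. Serpina3f and Serpina3i had 2 probes each and the other 5 genes had 1 probe each. The cluster was chosen because of its high values in treated 3T3-L1 cells, so the differences between treated and untreated 3T3-L1 cells given here are a description and were not tested.

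The study placed 3T3-L1 cells, a mouse embryonic fibroblast line used as a model of pre-adipocytes, in transwell co-culture with Raw264.7 cells, a mouse macrophage line, so that both lines shared the medium without touching. The 48 h cultures had serotonin at 100 µM, cortisol at 100 µM, both hormones together at 100 µM of each by the sample labels (cortisol-serotonin), or no treatment. RNA of each line under each treatment was labelled with Cy5 and hybridised to 1 array (8 arrays) against a common reference labelled with Cy3. No condition had a replicate. By the methods each line was harvested from the lower well of its own set-up, and cell numbers differed between the set-ups. The arrays of both lines under a treatment therefore came from separate cultures, so set-up and cell line cannot be told apart. No group held cells grown alone, so all 8 arrays share the co-culture. All 4 arrays of 3T3-L1 cells were on slide 1 and all 4 of Raw264.7 cells on slide 2, with each treatment at the same position on both slides, so slide and cell line, and position and treatment, cannot be told apart.

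The median Cy5 signal per array lay between 62 and 79 scanner units for 3T3-L1 and between 51 and 103 for Raw264.7, over backgrounds of 26.5 to 28, and no spot was saturated. Of 10 fibroblast markers, 8 or 9 were well above background on each array of 3T3-L1 cells, with Lum below it on each, and 6 to 8 on each array of Raw264.7 cells, where their summed signal was lower (263964 to 374552 units in 3T3-L1, 2003 to 2817 in Raw264.7). Of 9 macrophage markers with a probe, 8 were well above background on each array of 3T3-L1 cells, with a summed signal of 10860 to 22254 units, against all 9 and 116868 to 207071 units on the arrays of Raw264.7 cells. Adgre1, a defining macrophage surface receptor, was not above background on any array of 3T3-L1 cells. In bulk RNA of this kind, fewer cells of a type and less RNA per cell cannot be told apart.

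The labels of the serotonin and cortisol arrays need a reservation. The list of glucocorticoid response genes had a higher median on the arrays labelled serotonin than on those labelled cortisol in both cell lines, as described further on. Not every gene of the list was higher there. Whether the labels were exchanged is not settled by the files. Serotonin, cortisol and cortisol-serotonin therefore stand for the label of an array throughout, and no value is credited to a hormone beyond that.

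Serpins are inhibitors that present a reactive loop to a protease as bait and then trap the enzyme in an inactive complex. In the mouse the family that corresponds to human SERPINA3, alpha-1-antichymotrypsin, has expanded into a row of neighbouring genes whose reactive loops differ, so that the copies can inhibit different proteases. Serpina3n is a secreted acute-phase inhibitor known to block granzyme B, and its transcription is known to respond to glucocorticoids and to cytokines of the interleukin-6 group. Serpina3k is a plasma inhibitor that binds tissue kallikrein, Serpina3c is a closely related kallikrein-binding protein, and Serpina3g, also called Spi2A, inhibits lysosomal cathepsins inside cells. Serpina3h has a non-coding accession on the array and is a transcribed pseudogene. In the RefSeq table the row holds 14 entries, in the order Serpina3a, 3b, 3c, 3d-ps, 3e-ps, 3f, 3g, 3h, 3i, 3j, 3k, 3l-ps, 3m and 3n, so that Serpina3f to Serpina3i are neighbours and Serpina3m and Serpina3n stand next to each other at the end.

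Promoter sequence is shown because most members with a probe moved together and their start regions are related. RefSeq (GRCm38.p6) gave 6 windows from 250 bases before to 50 after a transcription start for 5 members, namely Serpina3c, Serpina3f (2 overlapping windows), Serpina3g, Serpina3i and Serpina3n, and none matched Serpina3h, Serpina3k or Serpina3m. The 250 bases before the start are printed 5′ to 3′ for the 4 of these genes that had a probe (for Serpina3f its first window), and capitals mark the glucocorticoid response motif AGAACA, the STAT site TTCNNNGAA and the TATA box TATAAA, read on either strand.
Serpina3n (chr12:104406458-104406707, + strand): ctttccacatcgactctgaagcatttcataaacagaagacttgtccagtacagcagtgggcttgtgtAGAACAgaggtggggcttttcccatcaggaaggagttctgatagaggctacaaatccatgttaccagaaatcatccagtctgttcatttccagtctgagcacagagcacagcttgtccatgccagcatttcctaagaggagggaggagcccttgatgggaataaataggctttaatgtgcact
Serpina3c (chr12:104153873-104154122, - strand): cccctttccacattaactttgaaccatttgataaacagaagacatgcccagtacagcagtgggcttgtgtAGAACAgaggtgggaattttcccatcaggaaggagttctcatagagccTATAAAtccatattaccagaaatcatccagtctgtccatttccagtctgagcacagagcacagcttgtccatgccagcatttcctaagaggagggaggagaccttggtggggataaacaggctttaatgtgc
Serpina3i (chr12:104262872-104263121, + strand): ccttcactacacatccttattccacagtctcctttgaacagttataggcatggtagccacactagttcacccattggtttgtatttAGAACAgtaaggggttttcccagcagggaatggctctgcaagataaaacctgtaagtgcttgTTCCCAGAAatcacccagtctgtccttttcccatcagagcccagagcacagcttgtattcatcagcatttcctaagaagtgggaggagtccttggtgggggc
Serpina3f (chr12:104214294-104214543, + strand): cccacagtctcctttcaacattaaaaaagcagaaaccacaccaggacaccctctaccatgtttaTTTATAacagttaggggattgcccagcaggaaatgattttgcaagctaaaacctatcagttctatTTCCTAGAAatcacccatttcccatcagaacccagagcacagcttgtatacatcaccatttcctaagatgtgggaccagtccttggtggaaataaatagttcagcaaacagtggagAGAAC
AGAACA was found in 5 of the 6 windows, where 19% of the 32851 mouse promoter windows of the same length hold it. The 2 windows of Serpina3f overlap and hold the same copy, so that by gene it was found in 4 of 5. Counted from the transcription start, its first base lay at -183 in Serpina3n, -180 in Serpina3c and -164 in Serpina3i, which had a further copy at 12, and in the first window of Serpina3f the last base of the copy fell past the start and outside the printed stretch. TTCNNNGAA was found in 4 of the 6 windows, those of Serpina3f, Serpina3g and Serpina3i (3 of 5 genes), against 8.3% of all windows. TATAAA was found in 2 of the 6 windows (13.6% of all windows). The full palindromic glucocorticoid response element, the NF-kB site GGAAATTCC, the C/EBP site TTGCGCAAT and the interferon-stimulated response element core were found in 0 of the 6 windows, and 0.00913%, 0.317%, 0.0487% and 3.44% of all windows hold them, in that order. The windows are related in sequence, so these counts are not independent and nothing is read from them beside the shares. A match of letters is a description of the sequence and says nothing about whether a factor bound there.

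The windows of Serpina3c and Serpina3n were the most alike among the members, identical at 275 of 297 aligned bases (92.6%). Those of Serpina3g and Serpina3i were identical at 80.5% of 236 aligned bases, Serpina3f and Serpina3g at 79% of 214, Serpina3f and Serpina3i at 76.3% of 295, and Serpina3i and Serpina3n at 72.4% of 228. The STAT match of Serpina3i, ttcccagaa, began at -102, and the base differences from it are counted from 1 at its 5′ end. The aligned stretch of Serpina3g was the same, that of Serpina3f was ttcctagaa (C5T, still a match), and that of Serpina3n and of Serpina3c was ttaccagaa (C3A, no longer a match). This aligned stretch was chosen after the sequences had been seen.

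In 3T3-L1 cells the members with a probe, other than the pseudogene Serpina3h, were higher on the arrays labelled serotonin and cortisol-serotonin than on those labelled cortisol and untreated. Serpina3n had a Cy5 signal of 3835 units on the array labelled serotonin, 288 on that labelled cortisol and 4544 on that labelled cortisol-serotonin, against 316.5 on the untreated array. Its log2 ratio to the reference was 3.83, 1.13 and 4.07 on those 3 treated arrays and 0.85 on the untreated array. The first and last of the treated arrays stood together and apart from cortisol and untreated, which lay close to each other. The log2 difference from untreated cells was 2.98 for serotonin (7.89-fold) and 3.22 for cortisol-serotonin (9.29-fold), with scanner errors of 0.517 and 0.534, which cover the technical noise of the spots and no biological spread. For cortisol it was 0.28, within its error of 0.359.

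Serpina3m, the neighbour of Serpina3n in the row, had the largest log2 differences by ratio among all genes measured for serotonin and for cortisol-serotonin, though not for cortisol. Its Cy5 signal was 1486.5 units for serotonin, 98 for cortisol and 1865 for cortisol-serotonin, against 240 for untreated cells, and its log2 ratio was 3.37, 0.34 and 3.79 against -0.03. The log2 difference from untreated was 3.40 for serotonin (10.6-fold, error 0.512) and 3.82 for cortisol-serotonin (14.2-fold, error 0.534). The spot on the untreated array was bright in both channels: its reference signal was 444 units, against 147 to 219 on the other 7 arrays. In the Cy5 channel alone, quantile-normalised without the reference, the log2 differences were smaller, 2.10 for serotonin and 2.64 for cortisol-serotonin. They were below those of Serpina3n on the same scale (3.08 and 3.575). By the log ratio of the scanner software the Serpina3m differences were larger, at log2 4.40 and 4.66. For cortisol the direction depended on the channel, with a log2 difference of 0.37 by ratio (error 0.347) and -0.81 by quantile-normalised Cy5 alone.

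Serpina3i was read by 2 probes that gave different sizes. The probe A_55_P1966774 had Cy5 signals of 5459 (serotonin), 1021 (cortisol) and 3867 (cortisol-serotonin), against 1007 (untreated). The probe A_55_P2142232 had 599, 224.5 and 539 for the same treatments, against 199. Both probes were high on the same 2 arrays. By the first probe the fold over untreated was 4.08 for serotonin and 4.63 for cortisol-serotonin, and by the second 2.21 and 2.33, so that the log2 differences for serotonin, 2.03 with an error of 0.366 and 1.15 with an error of 0.349, were further apart than either error. For cortisol the log2 difference was 0.30 by the first probe (error 0.297) and 0.585 by the second (error 0.334). The mean of both probes was 3.00-fold for serotonin, 1.36-fold for cortisol and 3.28-fold for cortisol-serotonin.

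Serpina3f was also read by 2 probes. The probe A_55_P2142226 had Cy5 signals of 11272 for serotonin and 6908 for cortisol-serotonin, against 845 for untreated cells, and its spot on the cortisol array was marked as an outlier by the scanner and left out. Its log2 ratio was 1.98 and 1.94 on these treated arrays, against -0.18, which is a fold of 4.49 (log2 2.17, error 0.347) and 4.35 (log2 2.12, error 0.344). The reference signal of this probe, which should be alike on every array, ranged from 260 to 3217 units, 12.4-fold, and only 1.32% of the 14809 probes measured in the reference on all 8 arrays varied as much (median 1.91-fold). In 3T3-L1 cells the reference was at 3217 and 2690 units where the sample was high, against 1778 on the untreated array. By quantile-normalised Cy5 alone the log2 differences were larger, 3.29 for serotonin and 2.84 for cortisol-serotonin. What set the reference apart was not tested.

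The second Serpina3f probe, A_55_P2104975, had Cy5 signals of 307 (serotonin), 59 (cortisol) and 357 (cortisol-serotonin), against 58 on the untreated array, where it was not well above background. Its bounds were therefore 2.76-fold higher for serotonin and 3.43-fold higher for cortisol-serotonin. A bound was taken from Cy5 levels normalised within and between arrays. A dim probe was given the higher of its own level and the lowest level well above background on its array. By the log ratio, which kept the dim spot, the folds were 2.71 and 3.52, so a bound is no strict limit. Such a bound is open to dye bias, since no dyes were swapped.

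Serpina3k and Serpina3c, the kallikrein-binding members, were not well above background in untreated cells. Serpina3k had 517 units for serotonin, 81 for cortisol and 567 for cortisol-serotonin, against 58.5 for untreated cells. Its bounds were 5.10-fold higher for serotonin and 5.96-fold higher for cortisol-serotonin. For cortisol its bound was 1.33-fold, against 1.13-fold by the log ratio. Serpina3c had 357.5, 56.5 and 390 units for the same treatments against 46, with bounds of 3.73-fold for serotonin and 4.35-fold for cortisol-serotonin. Serpina3c was not well above background on the cortisol array either, so no fold is given. The pseudogene Serpina3h stayed near background, with 101, 72 and 107 units against 64 for serotonin, cortisol and cortisol-serotonin. Its bounds were 1.21-fold, 1.16-fold and 1.33-fold in that order, against 1.15-fold, 1.01-fold and 1.37-fold by the log ratio.

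**Figure D1:**
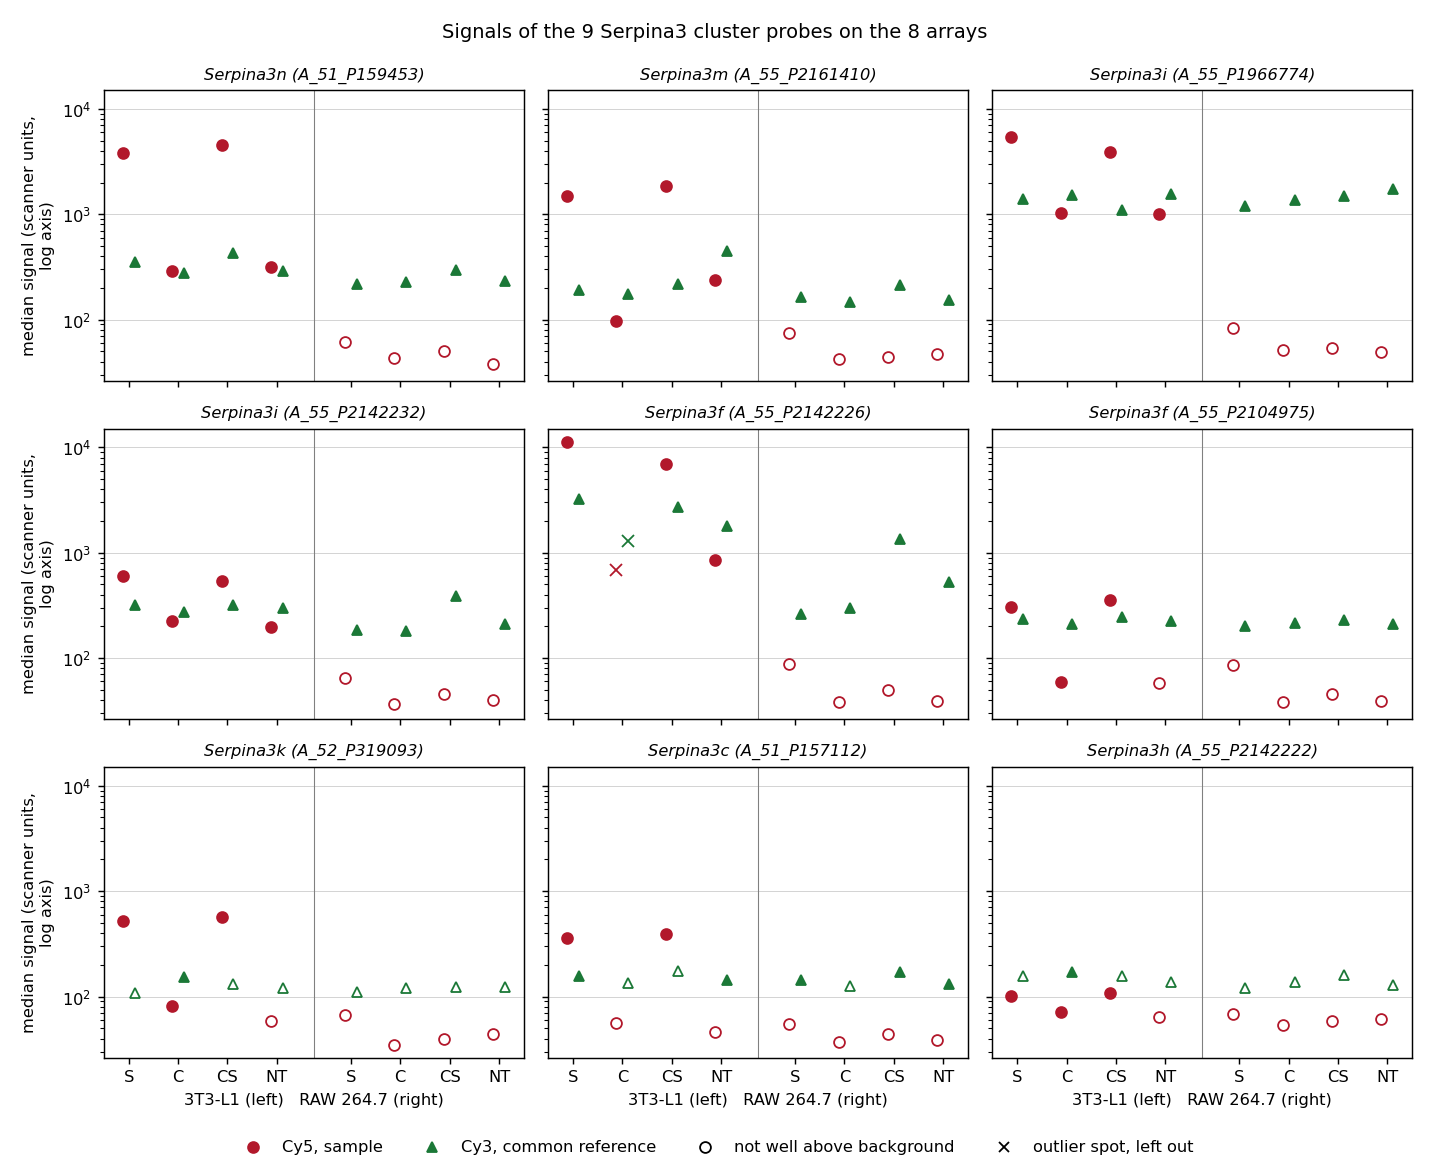
Median signals of the 9 probes on the 8 arrays (scanner units, log axis), with Cy5 of the sample as circles and Cy3 of the common reference as triangles; S is serotonin, C cortisol, CS cortisol-serotonin and NT untreated, as labelled, and open symbols are not well above background. The Cy5 circles of S and CS stand above those of C and NT in 3T3-L1 cells, for Serpina3n at 3835 and 4544 units over 288 and 316.5, and every Cy5 circle of Raw264.7 cells is open.

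Counted by gene, 4 members could be measured in both channels on the serotonin and the untreated array (Serpina3f, Serpina3i, Serpina3m and Serpina3n), and 4 of 4 were at least 2-fold higher with serotonin. Of all 13585 genes measured in that comparison 0.515% were as much higher and 0.721% as much lower. With cortisol-serotonin 4 of 4 were at least 2-fold higher, where 0.784% of 13393 genes were. These comparisons chose the members, so nothing is read from the counts. With cortisol 0 of 3 measured members changed 2-fold in either direction, where 0.416% of 13717 genes were higher and 1.23% lower. Without the filter on dim probes 6 of 7 members were at least 2-fold higher with serotonin, where 0.302% of all genes were higher and 0.502% lower, and 6 of 7 with cortisol-serotonin (0.446% and 0.327% of all genes), against 0 of 7 with cortisol (0.215% and 0.518%). The dim probes bring Serpina3c and Serpina3k, with bounds above 2-fold for serotonin and cortisol-serotonin, and Serpina3h has bounds under 2-fold, which leave its size unsettled.

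Among all genes measured, Serpina3m ranked 1 and Serpina3n ranked 2 by their log2 difference from untreated cells for both serotonin and cortisol-serotonin. Serpina3f ranked 8 and Serpina3i 24 of 13585 genes for serotonin, and 13 and 21 of 13393 for cortisol-serotonin. For cortisol Serpina3i ranked 1226, Serpina3m 1846 and Serpina3n 2829 of 13717.

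**Figure D2:**
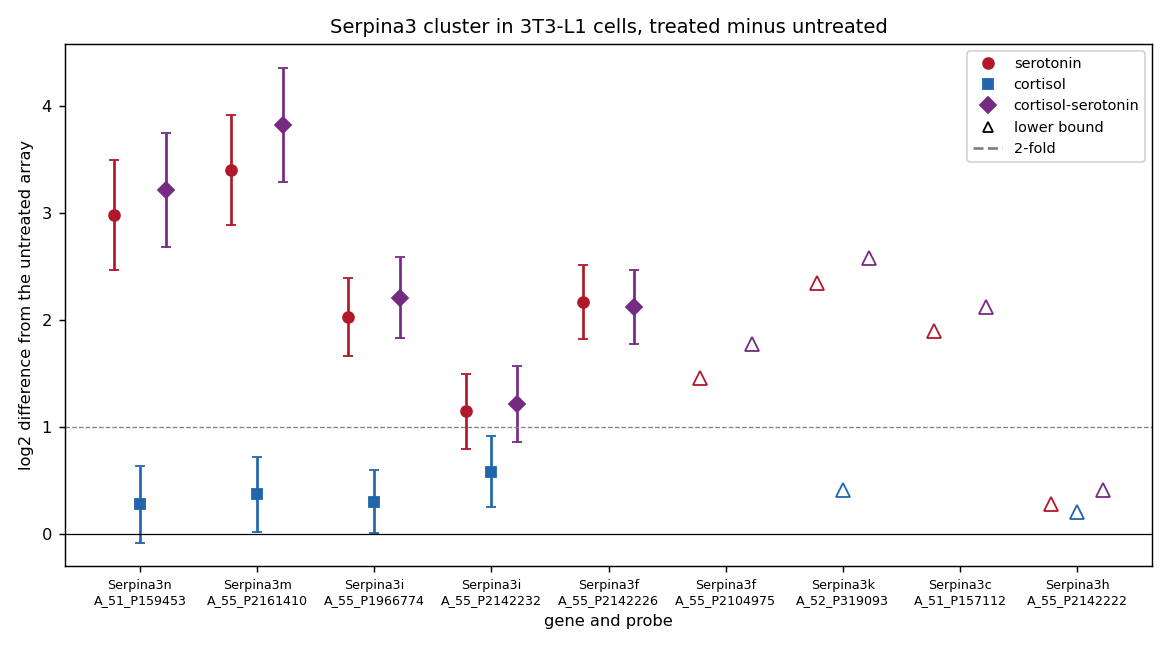
Log2 difference of each probe between the treated and the untreated array of 3T3-L1 cells, with bars for the scanner's error; open triangles are lower bounds where the untreated array was not well above background, and the dashed line marks a 2-fold difference. Serotonin and cortisol-serotonin lie together for every probe, up to 3.40 and 3.82 for Serpina3m, and the cortisol values of the measured probes lie below the 2-fold line.

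The array labelled cortisol-serotonin can also be set against that labelled cortisol, a comparison that shares no array with serotonin against untreated. The members were chosen on values that include the cortisol-serotonin array, so this too is a description and no separate evidence. Serpina3m was 10.9-fold higher with cortisol-serotonin than with cortisol (log2 3.45, error 0.562), and Serpina3n 7.65-fold (log2 2.94, error 0.540). The Serpina3f probe A_55_P2104975, well above background on both arrays, was 3.63-fold higher (log2 1.86, error 0.451; log2 3.24 by the scanner software). Serpina3i was 2.41-fold higher by the mean of its probes (log2 1.27), with log2 1.91 by A_55_P1966774 and 0.63, under 2-fold, by A_55_P2142232. These sizes stand beside 10.6-fold, 7.89-fold, a bound of 2.76-fold and 3.00-fold for the same items with serotonin over untreated cells. Over the 12959 genes measured on all 4 arrays, 32 were at least 2-fold higher in both comparisons, among them the 3 members so measured.

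**Figure D3:**
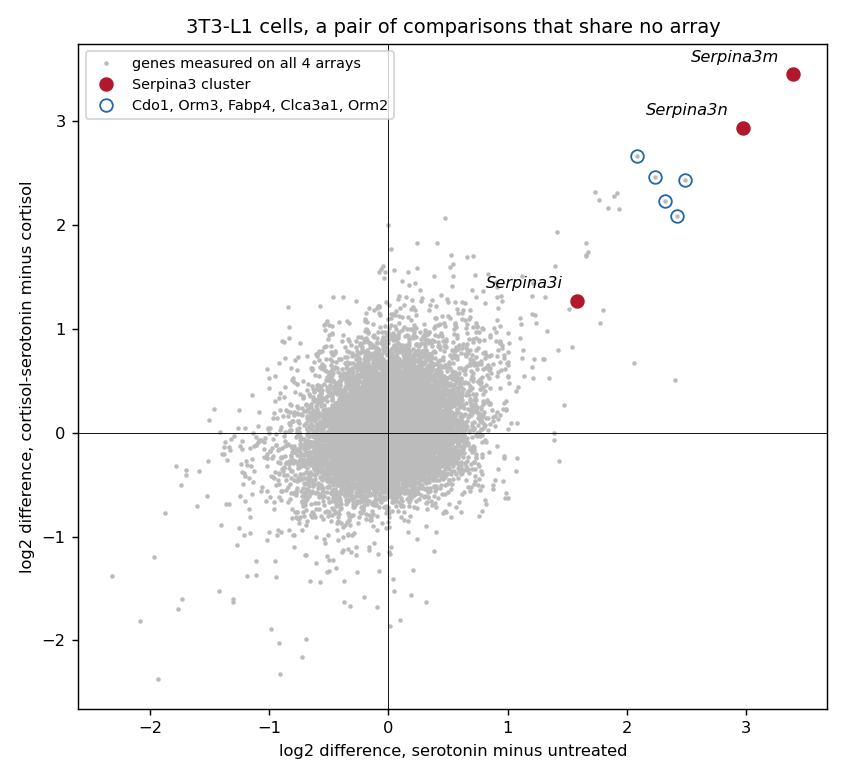
Log2 difference of cortisol-serotonin from cortisol (vertical axis) against that of serotonin from untreated (horizontal axis) for the 12959 genes with a value on each 3T3-L1 array, with the cluster members filled and the 5 genes nearest to Serpina3n ringed. Serpina3m (3.40 and 3.45) and Serpina3n (2.98 and 2.94) lie at the upper right end, and Serpina3i (1.59 and 1.27) lies between them and the bulk of genes.

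Between the array labelled cortisol-serotonin and that labelled serotonin the measured members differed by less than the scanner's error. The log2 difference of cortisol-serotonin from serotonin was 0.42 for Serpina3m (error 0.677), 0.23 for Serpina3n (error 0.656), 0.17 for Serpina3f (error 0.273) and 0.13 for Serpina3i (error 0.291). In the Cy5 channel alone the sign turned for Serpina3f (-0.08) and Serpina3i (-0.11). With 1 array per condition these values do not show that the conditions act alike.

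In Raw264.7 cells no member probe was well above background on any of the 4 arrays. Serpina3n had Cy5 signals of 61 units for serotonin, 43 for cortisol and 50.5 for cortisol-serotonin, against 38 for untreated cells. Over the 9 probes the Raw264.7 signals lay between 35 and 87 units, and for 9 of 9 the highest was on the array labelled serotonin, which also had the highest median signal over the whole array, 103 against 51 to 61 units. No member could be measured in these comparisons, where the share of genes past 2-fold was 0.639% higher and 0.276% lower with serotonin, 0.0378% and 0.0453% with cortisol, and 0.18% and 0.0749% with cortisol-serotonin. A limma model with added effects of serotonin and cortisol over 10983 genes called 0 genes for either hormone in these cells after Benjamini-Hochberg adjustment (365 for serotonin and 282 for cortisol at an unadjusted p under 0.05), and tested 0 members. Without the filter on dim probes the 7 members with a probe had adjusted p-values in limma of 0.876 or more for serotonin and 0.976 or more for cortisol, over 31483 genes.

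By their bounds, 4 of the 9 probes had more signal in 3T3-L1 than in Raw264.7 cells under all 4 treatments. With serotonin and cortisol-serotonin 9 of 9 had, down to 1.35-fold for Serpina3h with cortisol-serotonin. The share of all probes with such a bound was not counted, so nothing is read from these counts. The members were also chosen by their high values in treated 3T3-L1 cells. Serpina3n was at least 43.3-fold higher in 3T3-L1 than in Raw264.7 cells with serotonin, 3.98-fold with cortisol, 48.7-fold with cortisol-serotonin and 3.68-fold without treatment. The Serpina3i probe A_55_P1966774 was at least 33.0-fold, 11.7-fold, 43.6-fold and 12.1-fold higher in the same order, and Serpina3m 17.1-fold, 1.67-fold, 20.3-fold and 3.02-fold. For Serpina3f the probe A_55_P2142226 was at least 81.3-fold higher with serotonin, 78.2-fold with cortisol-serotonin and 10.6-fold in untreated cells. In untreated 3T3-L1 cells Serpina3n, Serpina3m, Serpina3i and this probe of Serpina3f were well above background, while Serpina3c, Serpina3k, Serpina3h and the other probe of Serpina3f were not.

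Over the 4 arrays of each line, Serpina3n averaged a log2 ratio of 2.47 ± 1.71 in 3T3-L1 and -1.26 ± 0.164 in Raw264.7 cells (SD, n = 4 each). Serpina3i averaged 1.15 ± 0.846 in 3T3-L1 and -2.44 ± 0.173 in Raw264.7 cells, and Serpina3m 1.87 ± 1.99 and -0.64 ± 0.180. Each was higher in 3T3-L1 cells in 4 of 4 pairs of arrays with the same treatment, and the wide SD of the 3T3-L1 values holds the step between the treatments. On the untreated and cortisol arrays alone (2 per line), a choice made after the values had been seen, the mean difference of 3T3-L1 from Raw264.7 was 2.25 for Serpina3n, 2.90 for Serpina3i and 0.64 for Serpina3m on the log2 scale. The Raw264.7 values come from spots not well above background, so the sizes of these differences were not measured there. A limma fit with the treatment as a block called 3 of 3 members higher in 3T3-L1 cells, where 41% of 12315 genes were called higher and 34.7% lower. Nothing is read from those calls and no p is given: the 3 genes passed the filter on dim probes only through 3T3-L1 cells, which set their direction, and the 3T3-L1 mean over 4 arrays holds those on which the members were chosen. The slides, and by the methods the culture set-ups, also coincide with the lines.

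The genes outside the cluster whose pattern was nearest to that of Serpina3n, by Euclidean distance over the 3 log2 differences from untreated 3T3-L1 cells, were Cdo1 (distance 0.605), Orm3 (1.06), Fabp4 (1.11), Clca3a1 (1.24) and Orm2 (1.27), out of 12960 genes measured in all 3. Cdo1, which encodes cysteine dioxygenase, had log2 differences of 2.49, 0.57 and 3.01 for serotonin, cortisol and cortisol-serotonin. Orm2 and Orm3 encode orosomucoids, which are acute-phase plasma proteins, and Fabp4 encodes the fatty acid binding protein of adipocytes. Members were left out of that order, in which Serpina3m, at 0.744 from Serpina3n, would follow Cdo1, and Serpina3i lay at 2.05. By Pearson's r over all 8 arrays, where the contrast of the cell lines weighs most, the nearest 5 of 12540 genes were Hps5, Kcnj15, Orm2, Gdpd2 and Zbtb16 (r 0.994 to 0.998), and the measures shared 1 gene, Orm2.

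The related genes were read from 7 lists, chosen by role. Of the other Serpina genes 16 had a probe and 1 could be measured in 3T3-L1 cells, Serpina1c, a copy of the alpha-1-antitrypsin genes, with log2 differences of 0.47, 0.10 and 0.17 for serotonin, cortisol and cortisol-serotonin. Within the same row of genes the probes of Serpina3a, Serpina3b and Serpina3j were well above background on 0, 1 and 0 of the 4 arrays of 3T3-L1 cells. Of the serpins of other clades 14 could be measured, with medians of -0.23, -0.07 and -0.19 beside medians of all genes between 0.01 and 0.02. In this list 0 genes were at least 2-fold higher for any treatment, where 0.416% to 0.784% of all genes were. Serpinb2, an intracellular serpin, was lower with serotonin (log2 -1.42). With cortisol (log2 -0.98) and cortisol-serotonin (log2 -0.975) it was lower by just under 2-fold. Serpine2 (0.44, -0.12 and 0.68), Serping1, the C1 inhibitor (0.33, 0.70 and 0.17), and Serpinh1, a collagen chaperone (-0.30, -0.03 and -0.47), stayed under 2-fold.

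The candidate proteases of these serpins were mostly not measurable in 3T3-L1 cells, with 9 or 10 of 26 measured. Ctsg, encoding cathepsin G, and Gzmb, encoding granzyme B, were above background on 0 of the 8 arrays. Elane, encoding neutrophil elastase, had log2 differences of -0.15, 0.35 and -0.09 for serotonin, cortisol and cortisol-serotonin, and Ctsl -0.06, -0.25 and -0.05. Ctss, encoding cathepsin S, which is abundant in macrophages, was lower with serotonin (log2 -1.75) and cortisol-serotonin (log2 -1.12) and at -0.61 with cortisol. The macrophage markers measured on the same arrays had median log2 differences of -0.50, -0.37 and -0.12 for serotonin, cortisol-serotonin and cortisol. Their summed Cy5 signal, which was not normalised, was not lower: 11914.5, 22253.5 and 11267.5 units in that order, against 10860.5 on the untreated array. The part of the macrophage markers in the value of Ctss was not tested.

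The counts of the cytokine and STAT3 genes past 2-fold are given beside the shares of all genes. Of 30 measured with serotonin 0 were 2-fold higher or lower (median -0.01), where 0.515% of all genes were higher and 0.721% lower. With cortisol-serotonin 0 of 29 were (median 0.01), where 0.784% were higher and 0.642% lower. These counts of 0 are near those shares, so nothing is read from them. With cortisol 2 of 29 were higher, Il11 (log2 1.59) and Il1a (log2 1.11), where 0.416% of all genes were higher and 1.23% lower. Il6 was at -0.66, 0.68 and -0.75 for serotonin, cortisol and cortisol-serotonin, and Socs3, a feedback target of STAT3, at -0.49, -0.23 and -0.69. Il6st, the shared receptor subunit, was at 0.05, -0.06 and 0.28, Osmr at 0.03, -0.44 and 0.13, and Stat3 itself at -0.01, 0.12 and 0.09. The 22 interferon response genes measured, beside the same shares of all genes, had 0 members changed with serotonin or cortisol. With cortisol-serotonin 2 were lower, Ifit1 (log2 -1.07) and Rsad2 (log2 -1.10). Isg15 was at -0.37, 0.24 and -0.30 and Gbp2 at 0.11, 0.47 and 0.08 for serotonin, cortisol and cortisol-serotonin.

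The glucocorticoid response and the acute-phase lists had medians above those of all genes on the 2 arrays where the members were high. Of 17 glucocorticoid response genes measured, 3 were at least 2-fold higher with serotonin (Fkbp5, Pdk4 and Zbtb16) and 0 lower, with a median of 0.58, and of 15 measured with cortisol-serotonin 4 were higher, with a median of 0.62. On the array labelled cortisol 0 of 17 were higher and 2 lower (Errfi1 and Tsc22d3), with a median of -0.19. The shares of all genes past 2-fold, for this list and the acute-phase list, were 0.515% higher and 0.721% lower with serotonin. They were 0.784% and 0.642% with cortisol-serotonin, and 0.416% and 1.23% with cortisol. Fkbp5, a chaperone induced by the glucocorticoid receptor, had log2 differences of 1.31, 0.14 and 1.44 for serotonin, cortisol and cortisol-serotonin, and Tsc22d3, another target of the receptor, 0.41, -1.06 and 0.77. Nr3c1, the receptor itself, was at 0.21, -0.26 and 0.40. In Raw264.7 cells the medians of this list were 0.35, -0.18 and 0.17 in the same order. Of 13 acute-phase genes measured with serotonin 3 were higher (Lbp, Orm2 and Orm3, median 0.58), of 12 with cortisol-serotonin 5 were (these and Saa2 and Steap4, median 0.63), and of 14 with cortisol 0 were (median 0.15). C3 was at 0.24, -0.15 and 0.47. In Raw264.7 cells, where no Serpina3 probe was well above background, 3 of 8 acute-phase genes measured passed 2-fold with serotonin. These were Lcn2 (log2 1.63), Saa3 (log2 1.35) and Mt2 (log2 1.01), where 0.639% of all genes were as much higher. Lcn2 and Mt2 also stand in the glucocorticoid response list. Saa3 was higher with cortisol-serotonin too (log2 1.18), where 0.18% of all genes were. With serotonin the acute-phase list had a median of 0.675 in these cells. The fibroblast markers measured on the same arrays had a median of 0.701, with Col3a1 past 2-fold. The part of the fibroblast markers in the acute-phase values was not tested.

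**Figure D4:**
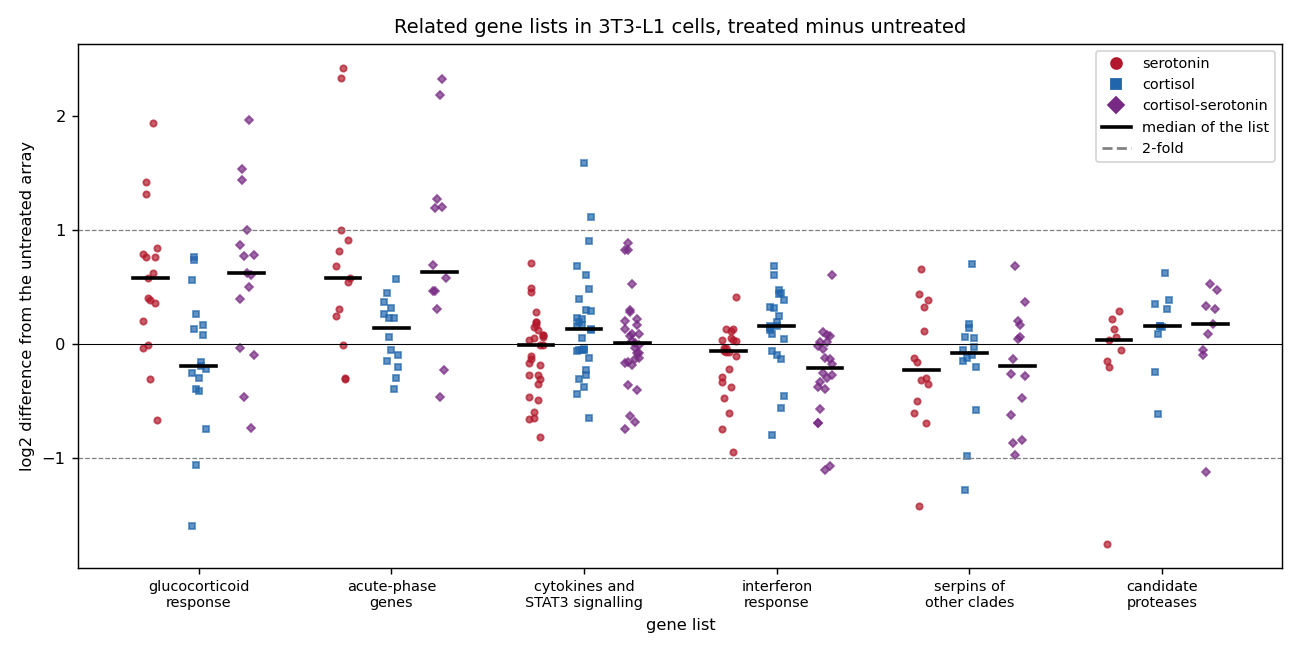
Log2 difference from the untreated array of 3T3-L1 cells for each measured gene of 6 lists, in columns for serotonin, cortisol and cortisol-serotonin, with the median of each list as a bar and dashed lines at 2-fold. The bars of the glucocorticoid response list lie at 0.58, -0.19 and 0.62 and those of the cytokine and STAT3 list at -0.01, 0.13 and 0.01.

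The members are close copies, so a probe may read more than its own gene. Each of the 9 probes carries the accession of a single member, but the probe sequences were not analysed here, and shared signal between copies was not tested. Within a gene the probes differed in size, as given for Serpina3i and Serpina3f.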

How the data were processed

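Per the labels and the file headers, spots were read with Agilent Feature Extraction 10.5.1.1 (the methods give another version), and the array design was built on mm9. The deposited scanner files hold median signal and background intensity per spot and channel and a log10 ratio of Cy5 to Cy3 with its error; their p-value for a ratio was not used. The deposited series matrix repeats that log10 ratio within 0.005 and was not used further. The labels describe the reference as all samples mixed equally, the methods as untreated cells grown alone. A difference of log ratios removes it only as far as its signal repeats between arrays.

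In limma 3.58.1 (R 4.3.3) signals were corrected with normexp (offset 50) and normalised by loess within each array, control spots having weight 0. Outlier spots were left out after that, when the spots of a probe were averaged. Probes had to be well above background in Cy5 and in Cy3 on every array of a comparison of treatments. The limma fit between the cell lines asked for this in Cy3 on every array, but in Cy5 only on every array of either line alone. A gene took the mean of the probes that passed, and in the comparisons of treatments a gene was called at 2-fold. Of 39429 probes, 27508 (69.8%) had a name in RefSeq. The lowest correlation between arrays was -0.221. The limma fits used Benjamini-Hochberg adjustment at 0.05 and were tested on simulated data. The treatment model has 2 residual degrees of freedom.

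Promoter windows were searched in Python 3.11.15 and aligned with Biopython 1.88. Figures were drawn with matplotlib 3.10.9. Named genes were all members, the 5 genes nearest to Serpina3n, list genes picked for their role, and other list genes changed at least 2-fold, which were chosen by value, as were Serpina1c, Serpina3a, Serpina3b and Serpina3j. A gene of the list of serpins of other clades is not reported here. The members, lists and tests were chosen with earlier results of these data known. The number of arrays limits the precision. Alternatives covered background correction, normalisation, the dim-probe filter, each probe alone and each array left out.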

Additional observations from a re-analysis of the deposited data

How the results depend on the processing

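The members' log2 differences from untreated 3T3-L1 cells for serotonin and cortisol-serotonin stayed at least 2-fold higher in 58 of 58 alternative values; these comparisons chose the members. Without the filter on dim probes, 6 of 7 members were at least 2-fold higher with serotonin and with cortisol-serotonin, where 0.302% and 0.446% of genes were, in place of 4 of 4. Without it the limma fit of 3T3-L1 against Raw264.7 cells called 6 of 7 members in place of 3 of 3, since more genes were tested; 19.7% of genes were called higher, and nothing is read from those calls. In other comparisons of 3T3-L1 arrays 4 member values turned in sign, 1 for cortisol (Serpina3m, Cy5 alone) and 3 for cortisol-serotonin against serotonin (Serpina3f and Serpina3i, Cy5 alone, and Serpina3f by probe A_55_P2142226 alone, -0.04). Median centring in place of loess moved the median of all genes to 1.08 for serotonin, 1.00 for cortisol-serotonin and 0.60 for cortisol on the log2 scale. Relative to that median Serpina3n was at 2.58 and 2.81, Serpina3m at 3.06 and 3.51, Serpina3f at 2.38 and 2.20 and Serpina3i at 1.40 and 1.52 for serotonin and cortisol-serotonin. With each array left out in turn, which drops its pair, the difference of 3T3-L1 from Raw264.7 cells ranged from 3.23 to 4.23 for Serpina3n, 3.30 to 3.84 for Serpina3i and 1.82 to 3.20 for Serpina3m, and with the log ratio of the scanner software it was 6.91, 6.29 and 5.02; the cause was not tested. The Raw264.7 treatment comparisons could measure 0 members with the filter, so their counts say nothing about stability. No paired analysis of the treatments was possible because each condition has 1 array. The arrays of both lines were paired by treatment alone, since no label pairs them further. The dim probes of Serpina3c, Serpina3h and Serpina3k give bounds only.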
